A study of Homo sapiens with 12 samples.

Results

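The genes that copy DNA in S phase were followed by name through bulk RNA sequencing of U251-APP, a derivative of the human glioblastoma line U251 that expresses mutant APP, the precursor of amyloid beta. The list held 47 genes, chosen by symbol and by role, with earlier results of these data known. The table of normalized expression held 46 of them, out of 11178 genes in all. The remaining one, CCNE2, was not analysed here. All 46 passed the filter on low values, as did 11128 genes of the table. The 3 groups had 4 libraries each. CTCF-A KO cells lacked the CTCF-binding site called CTCF-A. CTCF-B KO cells lacked the site called CTCF-B. WT cells were the wild-type controls. Cells of all 3 groups, WT included, stably expressed APP with K670N and M671L and grew in the same serum-containing medium. Per the labels' protocols, a pair of guide RNAs was transfected with Cas9, single cells were picked under puromycin and a red fluorescent marker, and each clone's target region was sequenced. The labels do not say whether WT cells were cloned, or whether the replicates of a group were separate clones or separate cultures of 1 clone. The p-values therefore measure only the spread between these libraries, which may be technical, and a difference between a knockout and WT could also be one between clones.

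DNA replication starts at origins bound by the origin recognition complex (ORC), which with CDC6 and its partner CDT1 loads the ring-shaped MCM2-7 helicase onto DNA in G1. The kinases CDC7-DBF4 and cyclin E-CDK2 then turn the loaded ring into an active helicase by adding CDC45 and the GINS complex, with MCM10 helping. DNA polymerase alpha with primase makes the primers, the replication factor C (RFC) loader places the sliding clamp PCNA, and polymerases delta and epsilon extend the strands. RPA covers single-stranded DNA, FEN1 and LIG1 finish the lagging strand, TYMS, TK1 and ribonucleotide reductase supply nucleotides, and UHRF1 and CAF-1 restore chromatin behind the fork. Many of these genes are known targets of the E2F transcription factors, which the retinoblastoma protein holds back until cells commit to S phase. In bulk RNA, fewer cells in S phase and less of an mRNA in each cell cannot be told apart.

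Values are log2 of normalized expression as deposited, so a difference of 1 is a doubling. The read depth of the libraries is not known, and no counting interval can be given. Of 12 astrocyte and glioma markers, 9 were in the table, among them VIM and GFAP, while S100B, AQP4 and ALDH1L1 were not. No gene of the lists for microglia or oligodendrocytes was in the table. Of the other lists it held SNAP25 and MAP2 of 6 neuron markers, KDR of 4 endothelial markers and KRT18 of 5 epithelial markers. GFAP averaged 12.57 ± 0.08 in CTCF-A KO, 12.83 ± 0.05 in CTCF-B KO and 15.68 ± 0.16 in WT (SD, n = 4 each). The CTCF-A KO libraries differed from each other along gene GC content. Between the tenth of genes richest in GC and the tenth poorest, the deviation from WT differed by 1.01, 0.47, 0.69 and 0.06 log2 units in CTCF-A KO replicates 1 to 4, against -0.12 to 0.03 in CTCF-B KO and -0.15 to 0.09 in WT. For that reason a CTCF-A KO difference from WT that was called is given also after removal of a trend with GC content and transcript length from each library, and, for some genes, in replicate 4 alone. Values with no such remark are as deposited.

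E2F motifs were looked for in RefSeq promoters (GRCh38.p14, from 250 bases before to 50 bases after each gene's start), which were matched by symbol for 40 of the 46 genes. The words searched were TTTCCCGC, TTTGGCGC, TTTCGCGC and TTTGCCGC on both strands. They occurred in 17 of the 40 promoters (42.5%), against 908 of 27305 promoters in the whole RefSeq table (3.33%) and 493 of 8420 promoters of genes in the expression table (5.86%). The 4 stretches below are shown because they carry the motif before the start site. They belong to a helicase subunit lower in both knockouts (MCM6), another subunit (MCM3), the polymerase that makes the primers (POLA1) and the clamp (PCNA). MCM3 was called higher in CTCF-A KO and lower in CTCF-B KO as deposited. With the trend removed its CTCF-A KO difference was -0.01 and not called. Capitals mark the motif, on either strand. Each block of 12 capitals in MCM6 holds a pair of overlapping matches, 1 on each strand, so that its stretch has 4 matches.
MCM6, chr2:135876514-135876603, minus strand: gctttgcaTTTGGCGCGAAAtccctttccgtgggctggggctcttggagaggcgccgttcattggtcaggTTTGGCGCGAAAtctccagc
MCM3, chr6:52284882-52284971, minus strand: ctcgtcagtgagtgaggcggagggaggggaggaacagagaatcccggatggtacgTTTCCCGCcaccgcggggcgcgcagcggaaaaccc
POLA1, chrX:24693740-24693829, plus strand: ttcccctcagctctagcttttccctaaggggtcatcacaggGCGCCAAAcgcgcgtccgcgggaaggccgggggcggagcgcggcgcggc
PCNA, chr20:5126633-5126722, minus strand: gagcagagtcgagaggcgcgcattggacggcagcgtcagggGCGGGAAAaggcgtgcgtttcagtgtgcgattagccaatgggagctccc

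These stretches begin 160 (MCM6), 229 (MCM3), 178 (POLA1) and 100 (PCNA) bases before the start. The 5-letter word CCAAT, on both strands, was in 23 of the 40 promoters (57.5%), against 35.7% of all RefSeq promoters and 37.6% of those of genes in the expression table. The words TTTGAA and TTCGAA, looked for as the cell-cycle homology element, were in 3 (7.5%), against 16.6% and 10.6%. A match is a run of letters and not evidence of binding. Genes with and without an E2F match were called in both directions. Of the 17 with a match, 4 were higher and 5 lower in CTCF-A KO than in WT, and 2 were higher and 6 lower in CTCF-B KO than in WT. Of the 23 without one, 5 were higher and 10 lower in CTCF-A KO, and 3 were higher and 4 lower in CTCF-B KO. Over all genes 31.8% were called higher and 31.1% lower in CTCF-A KO, against 18.9% and 20.6% in CTCF-B KO.

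In WT cells the replication genes covered a wide range of expression. Per kilobase of the longest transcript, the highest log2 levels were those of RRM2, the small subunit of ribonucleotide reductase (11.22), TK1, the cytosolic thymidine kinase (11.19), POLD2, an accessory subunit of polymerase delta (11.18), and MCM7 (11.10). The lowest were POLA2, the B subunit of polymerase alpha (4.77), and POLA1, its catalytic subunit (6.19). Within the helicase the per-kilobase levels were 9.48 for MCM2, 10.47 for MCM3, 9.77 for MCM4, 9.64 for MCM5, 9.25 for MCM6 and 11.10 for MCM7. Replicates were close: the median over genes of the SD of 4 libraries was 0.11 in CTCF-A KO (highest 0.54), 0.05 in CTCF-B KO (highest 0.12) and 0.05 in WT (highest 0.15).

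The replication genes did not move as a block in either knockout. In CTCF-A KO 10 of the 46 were higher than in WT and 17 were lower, by limma with Benjamini-Hochberg adjustment over all genes at 0.05. Over all 11128 genes 31.8% were called higher and 31.1% lower, against 21.7% and 37% of the members. The median difference of the 46 was -0.04, against 0.00 for all genes, and single genes ran between -0.86 and 0.40. In CTCF-B KO 6 were higher and 13 lower than in WT, against 18.9% and 20.6% of all genes, with a median of -0.01 (0.00 for all genes) and a range of -0.52 to 0.37. Whether these shares differ from the background was not tested, and the results below are those of single genes and complexes.

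**Figure D1:**
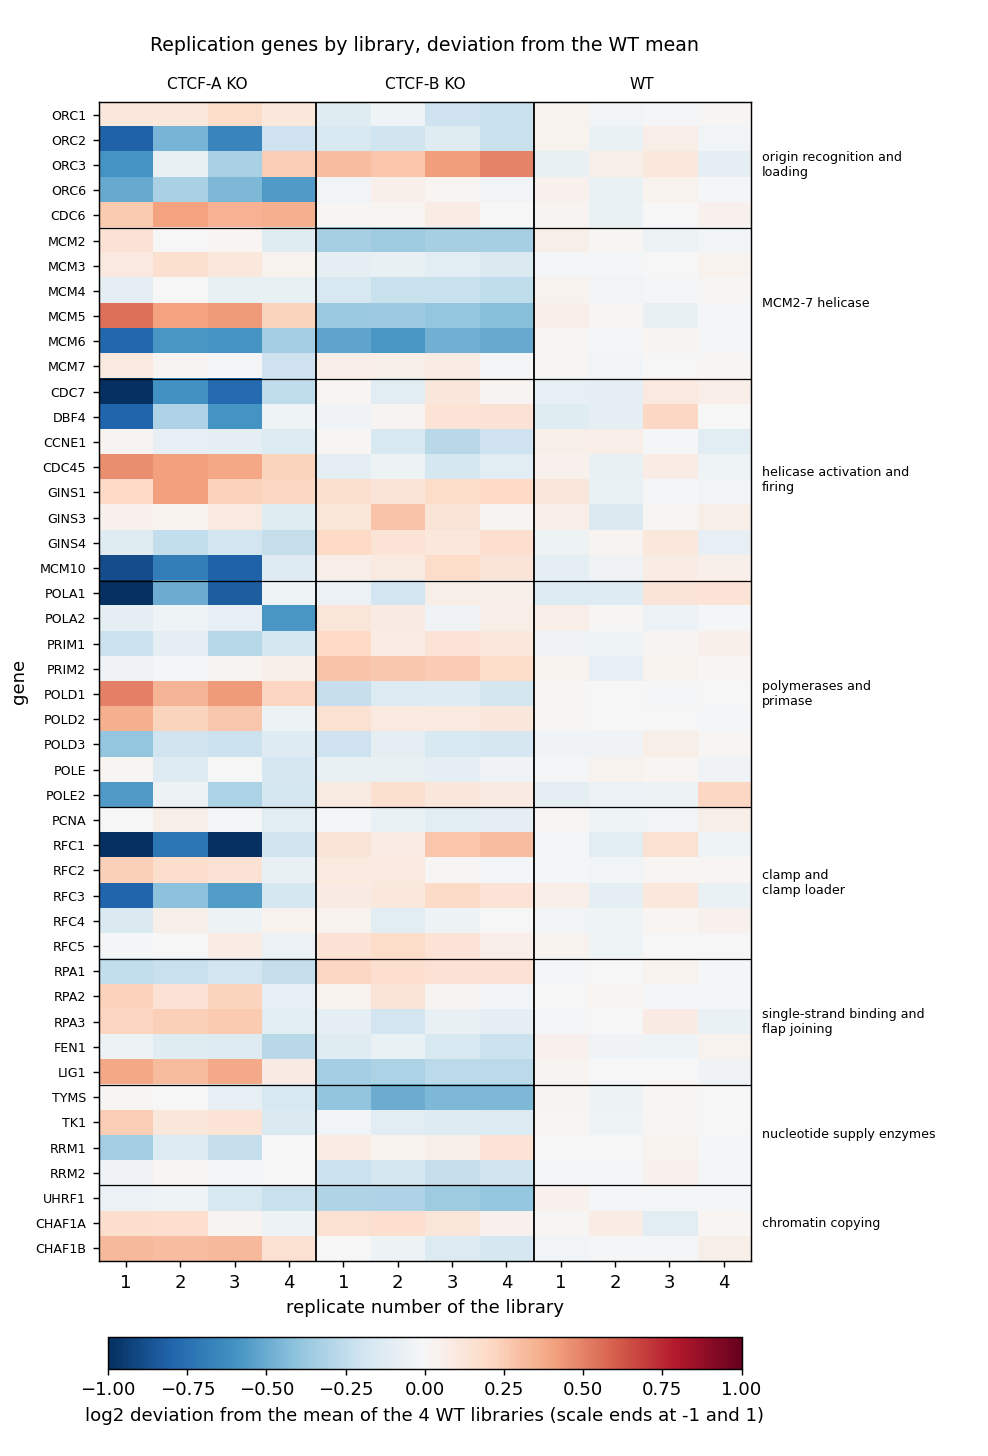
Deviation of each replication gene from the mean of the 4 WT libraries (colour, log2 units) in every library of CTCF-A KO, CTCF-B KO and WT, with genes ordered by role. MCM6 is blue in all 8 knockout libraries, the CTCF-B KO columns are also blue for MCM2 to MCM5, TYMS and UHRF1, and CTCF-A KO replicate 4 is paler than replicates 1 to 3 for RFC1, CDC7 and MCM10.

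With the GC and length trend removed, 10 members were higher and 20 lower in CTCF-A KO (21.7% and 43.5%, background 31.6% and 30%). In CTCF-B KO 7 were then higher and 18 lower (15.2% and 39.1%, background 29.5% and 25.7%). The CTCF-A KO calls made also after the trend was removed and when replicate 4 stood alone for CTCF-A KO (20.2% of all genes higher and 21.6% lower) were 5 higher genes, CDC6, MCM5, CDC45, GINS1 and POLD1, and 7 lower genes, ORC2, ORC6, MCM6, GINS4, RPA1, FEN1 and UHRF1. Not called in CTCF-A KO as deposited but lower with the trend removed were MCM2 (-0.15), MCM7 (-0.19), CCNE1 (-0.24), POLA2 (-0.34), POLE (-0.21), TYMS (-0.17) and TK1 (-0.12), while PRIM2 (0.16), RPA3 (0.16) and RRM2 (0.09) were higher. In CTCF-B KO all 13 lower calls and 5 of the 6 higher calls were also made after removal of the trend. Gained there were lower calls of ORC2 (-0.17), CCNE1 (-0.17), CDC45 (-0.12), TK1 (-0.11) and PCNA (-0.09) and higher calls of CHAF1A (0.14) and POLD2 (0.10). As deposited these differences were -0.18, -0.16, -0.11, -0.10, -0.07, 0.12 and 0.12, in the same order. Leaving out 1 library at a time ended 7 of the 27 CTCF-A KO calls in at least 1 fit (FEN1, MCM3, ORC1, POLD2, POLE2, RRM1 and UHRF1) and 9 of the 19 CTCF-B KO calls (FEN1, GINS1, GINS4, MCM3, ORC1, ORC3, POLD1, POLD3 and RFC5).

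The genes of origin recognition and loading were split. In CTCF-A KO 2 of the 5 rose and 2 fell, while 1 rose and 1 fell in CTCF-B KO. ORC2, a core subunit of ORC, had log2 values of 8.46, 8.81, 8.61 and 9.07 in CTCF-A KO libraries, 9.11, 9.07, 9.15 and 9.04 in CTCF-B KO libraries, and 9.31, 9.20, 9.33 and 9.24 in WT. Every CTCF-A KO library lay below every WT library, with replicate 4 the nearest. It fell by 0.53 ± 0.10 (SE) in CTCF-A KO (adjusted p 0.000552, limma), to 0.690 of WT, and the difference was -0.19 with the trend removed. In CTCF-B KO the 4 libraries also lay below those of WT. The difference was -0.18 and not called as deposited (adjusted p 0.179, limma), and -0.17 and called with the trend removed (adjusted p 0.00384). The fit used 1 spread for all 3 groups, and the SD of ORC2 was 0.26 in CTCF-A KO, 0.04 in CTCF-B KO and 0.06 in WT. ORC6, the smallest ORC subunit, needed for loading the helicase, is one of several genes given by library that were chosen after their values were seen. It stood at 10.25, 10.44, 10.32 and 10.19 in CTCF-A KO, 10.73, 10.81, 10.78 and 10.74 for CTCF-B KO, and 10.80, 10.70, 10.80 and 10.75 in WT. The CTCF-A KO libraries, replicate 4 included, were all lower, by 0.46 ± 0.05 (adjusted p 9.27e-06, limma) and by 0.43 with the trend removed, while CTCF-B KO and WT overlapped.

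CDC6, the ATPase that loads MCM2-7 with ORC, moved the other way. Its log2 values were 10.78, 10.92, 10.87 and 10.87 in CTCF-A KO libraries, 10.53, 10.54, 10.59 and 10.52 in CTCF-B KO libraries, and 10.55, 10.45, 10.52 and 10.56 in WT. It was 0.34 ± 0.04 higher in CTCF-A KO (adjusted p 2.3e-05, limma), a ratio of 1.27 to WT, and 0.52 higher with the trend removed, whereas the CTCF-B KO libraries overlapped WT. ORC3, another core ORC subunit, stood at 7.83, 8.36, 8.10 and 8.67 in CTCF-A KO, 8.74, 8.70, 8.85 and 8.92 for CTCF-B KO, and 8.36, 8.48, 8.53 and 8.34 in WT. It was 0.37 ± 0.14 higher in CTCF-B KO, a call near the threshold (adjusted p 0.0451, limma) that was lost in 10 of the 12 fits that left out 1 library. CTCF-A KO overlapped WT for this gene and had the widest spread (SD 0.36, against 0.10 in CTCF-B KO and 0.09 in WT). That spread enters the CTCF-B KO test, because the fit used 1 spread for all 3 groups. The CTCF-B KO libraries lay above those of WT, and with the trend removed ORC3 was 0.34 higher there (adjusted p 0.00513, limma). ORC1, the ATPase subunit of ORC that is made in G1, was 0.12 higher in CTCF-A KO and 0.15 lower in CTCF-B KO than in WT, and the CTCF-A KO call was lost with the trend removed (difference 0.03).

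The MCM2-7 helicase has 6 subunits. In CTCF-A KO MCM6 fell, MCM5 and MCM3 rose, and the other 3 were not called. In CTCF-B KO 5 of the 6 fell and none rose (median difference -0.28), against 20.6% of all genes lower and 18.9% higher. The libraries of each of the 5 lay wholly below those of WT. The share of all genes whose libraries lay apart in this way was not computed. MCM6 (ENSG00000076003, chromosome 2, 135839626 to 135876426, GRCh38) was the one subunit called lower in both knockouts as deposited. Its log2 values were 10.36, 10.56, 10.56 and 10.80 in CTCF-A KO libraries, 10.63, 10.57, 10.67 and 10.64 in CTCF-B KO libraries, and 11.16, 11.13, 11.17 and 11.14 in WT. All 8 knockout libraries were below all 4 WT libraries. MCM6 in CTCF-A KO was at 0.670 of WT (-0.58 ± 0.07, adjusted p 1.87e-05, limma), and in CTCF-B KO at 0.696 of WT (-0.52 ± 0.07, adjusted p 7.56e-05). With the trend removed these differences were -0.37 and -0.52, and replicate 4 alone of CTCF-A KO gave -0.35. MCM2 was also called lower in both knockouts with the trend removed (CTCF-A KO -0.15, CTCF-B KO -0.30).

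MCM5 (ENSG00000100297, chromosome 22, 35400063 to 35425430) was the subunit on which the knockouts differed most. It stood at 12.01, 11.87, 11.89 and 11.69 in CTCF-A KO, 11.09, 11.10, 11.08 and 11.04 for CTCF-B KO, and 11.54, 11.48, 11.39 and 11.46 in WT. The 3 groups did not overlap, with CTCF-A KO above WT and CTCF-B KO below it. It was 0.40 ± 0.06 higher in CTCF-A KO than in WT (0.24 with the trend removed) and 0.39 ± 0.06 lower in CTCF-B KO than in WT (0.36 lower with the trend removed). CTCF-A KO had 1.73 times the MCM5 of CTCF-B KO (log2 difference 0.79 ± 0.06, adjusted p 1.52e-07, limma), and the log2 difference was 0.60 with the trend removed.

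MCM2 was not called in CTCF-A KO and was called lower in CTCF-B KO. Its values were 11.48, 11.34, 11.36 and 11.21 in CTCF-A KO libraries, 11.00, 10.98, 11.01 and 11.00 in CTCF-B KO libraries, and 11.40, 11.35, 11.29 and 11.31 in WT. The CTCF-B KO libraries, which varied by an SD of 0.01, were 0.34 ± 0.05 below WT (adjusted p 0.000168, limma). CTCF-A KO differed from CTCF-B KO by 0.35 ± 0.05 (adjusted p 5.25e-05), and by 0.15 with the trend removed. In CTCF-A KO the difference of MCM2 from WT was 0.01 in the data as deposited and -0.15 with the trend removed (adjusted p 0.00012), so its direction there depended on that step. MCM4 was at -0.06, not called, in CTCF-A KO, and fell by 0.21 in CTCF-B KO. MCM3 was 0.10 higher in CTCF-A KO (-0.01 with the trend removed) and fell by 0.10 in CTCF-B KO. MCM7 overlapped between groups, at 12.82, 12.75, 12.71 and 12.52 in CTCF-A KO, 12.78, 12.78, 12.80 and 12.70 for CTCF-B KO, and 12.74, 12.69, 12.72 and 12.73 in WT. The 95% interval of its difference from WT was -0.14 to 0.10 in CTCF-A KO, against -0.08 to 0.16 for CTCF-B KO. With the trend removed the MCM7 difference in CTCF-A KO was -0.19 and was called.

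**Figure D2:**
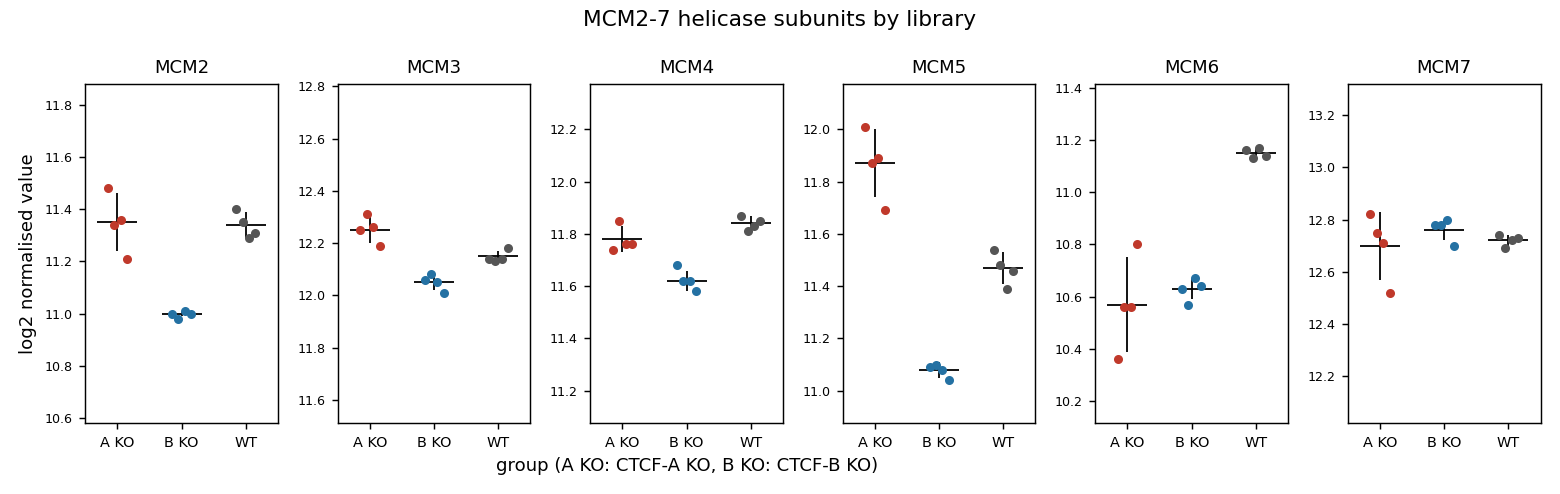
Log2 normalised value of each MCM2-7 subunit in every library (points), with the group mean and SD (lines, n = 4) for CTCF-A KO, CTCF-B KO and WT. CTCF-B KO libraries lie below WT for MCM2 to MCM6, and both knockouts lie below WT for MCM6 only.

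Helicase activation and origin firing take 8 of the genes. In CTCF-A KO 2 of them rose and 4 fell, and in CTCF-B KO 2 rose and none fell. CDC7, the kinase that phosphorylates loaded MCM2-7, stood at 6.96, 7.44, 7.26 and 7.79 in CTCF-A KO libraries, 8.06, 7.93, 8.15 and 8.07 in CTCF-B KO libraries, and 7.96, 7.96, 8.14 and 8.11 in WT. All 4 CTCF-A KO libraries were lowest, and replicate 4 was nearest to WT. It fell to 0.624 of WT (-0.68 ± 0.13, adjusted p 0.000776, limma), with a difference of -0.39 after the trend was removed and of -0.26 (adjusted p 0.0525) in replicate 4 alone. The regulatory subunit DBF4 was 0.44 ± 0.13 lower in CTCF-A KO, but its libraries overlapped WT, and it was -0.11 and no longer called with the trend removed.

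MCM10, which joins the helicase to the polymerase machinery, followed the same libraries. Its values were 8.02, 8.21, 8.10 and 8.78 in CTCF-A KO, 8.97, 8.99, 9.09 and 9.03 for CTCF-B KO, and 8.81, 8.87, 8.98 and 8.96 in WT. Replicates 1 to 3 of CTCF-A KO lay well below WT and replicate 4 just below it. It fell by 0.63 ± 0.13 (adjusted p 0.000977, limma), by 0.37 with the trend removed, and the difference in replicate 4 alone was -0.13 (adjusted p 0.187).

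The parts of the active helicase itself did not share a direction in CTCF-A KO. CDC45, the helicase's partner, stood at 9.50, 9.45, 9.42 and 9.26 in CTCF-A KO libraries, 8.94, 8.99, 8.86 and 8.94 in CTCF-B KO libraries, and 9.08, 8.96, 9.11 and 9.00 in WT. It was 0.37 ± 0.06 higher in CTCF-A KO than in WT (adjusted p 0.000156, limma), 0.23 higher with the trend removed, and was not called in CTCF-B KO as deposited. GINS1, at 8.86, 9.08, 8.90 and 8.87 in CTCF-A KO, 8.82, 8.80, 8.85 and 8.86 for CTCF-B KO, and 8.78, 8.60, 8.64 and 8.64 in WT, was the one member called higher in both knockouts (by 0.26 ± 0.06 and 0.17 ± 0.06). Its difference with the trend removed was 0.50 in CTCF-A KO, and the CTCF-B KO call was lost (0.16, adjusted p 0.0656, limma). GINS4 was 0.20 lower in CTCF-A KO (0.17 lower with the trend removed) and 0.15 higher in CTCF-B KO. GINS3 (0.01 in CTCF-A KO, 0.14 in CTCF-B KO) and the G1/S cyclin CCNE1 (-0.07 and -0.16) were not called against WT.

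The polymerases and primase were represented by 9 subunits. In CTCF-A KO 2 of these rose and 4 fell, while 1 rose and 2 fell in CTCF-B KO. The catalytic subunit of polymerase delta, POLD1, had values of 10.89, 10.72, 10.81 and 10.60 in CTCF-A KO libraries, 10.16, 10.25, 10.26 and 10.21 in CTCF-B KO libraries, and 10.40, 10.39, 10.37 and 10.38 in WT. The groups did not overlap: POLD1 was 0.37 ± 0.06 higher in CTCF-A KO (0.18 with the trend removed) and 0.17 ± 0.06 lower in CTCF-B KO than in WT (0.10 lower with the trend removed). Its partner POLD3 fell in both (CTCF-A KO -0.23, CTCF-B KO -0.15), though the CTCF-A KO value was -0.01 with the trend removed. POLD2 was 0.20 higher in CTCF-A KO, with overlapping libraries and a difference of -0.00 with the trend removed.

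Polymerase alpha and epsilon subunits were lower or not called in CTCF-A KO. POLA1 fell by 0.61 ± 0.17, yet its values of 7.56, 8.15, 7.82 and 8.61 overlapped the 8.52, 8.52, 8.78 and 8.78 of WT, and the difference was -0.30 with the trend removed and -0.04 in replicate 4 alone. POLE2, a polymerase epsilon accessory subunit, fell by 0.28 (-0.22 with the trend removed) and the primase catalytic subunit PRIM1 by 0.19 (-0.10 and not called with the trend removed), whereas POLE was -0.07, POLA2 -0.20 and the primase large subunit PRIM2 0.01, none of them called as deposited. In CTCF-B KO the PRIM2 mRNA rose by 0.25 ± 0.05 (adjusted p 0.000783, limma). The other alpha and epsilon subunits lay between -0.07 and 0.13 in CTCF-B KO and were not called, nor was POLD2 (0.12).

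Among the 6 genes of the sliding clamp and its loader, 2 fell and none rose in CTCF-A KO, and 1 rose and none fell in CTCF-B KO. RFC1, the large subunit of the clamp loader, had the biggest difference of the 46 genes: 8.45, 9.21, 8.91 and 9.73 in CTCF-A KO, 10.06, 10.01, 10.21 and 10.24 for CTCF-B KO, and 9.93, 9.83, 10.09 and 9.89 in WT. The CTCF-A KO libraries were all lower but spread over more than 1 log2 unit, replicate 1 farthest from WT and replicate 4 nearest. RFC1 fell to 0.551 of WT (-0.86 ± 0.19, adjusted p 0.00213, limma). The difference was -0.52 with the trend removed and -0.20 (adjusted p 0.113) in replicate 4 alone. Between the knockouts RFC1 was 1.06 ± 0.19 lower in CTCF-A KO than in CTCF-B KO (adjusted p 0.000385), and 0.74 lower with the trend removed.

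RFC3, a small subunit of the loader, stood at 8.37, 8.76, 8.60 and 8.99 in CTCF-A KO libraries, 9.25, 9.27, 9.36 and 9.30 in CTCF-B KO libraries, and 9.23, 9.06, 9.27 and 9.10 in WT. It fell by 0.48 ± 0.10 in CTCF-A KO (adjusted p 0.00148, limma) and by 0.28 with the trend removed, with the CTCF-A KO libraries all below WT, and replicate 4 alone gave -0.17 (adjusted p 0.0974). RFC2, RFC4 and RFC5 were not called there (0.12, -0.03 and -0.00), and RFC5 was 0.13 higher in CTCF-B KO, where RFC1 (0.20), RFC2 (0.05), RFC3 (0.13) and RFC4 (-0.03) were not called. PCNA itself stayed within -0.11 to 0.08 of WT in CTCF-A KO and within -0.17 to 0.02 in CTCF-B KO (95% intervals of the log2 difference).

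**Figure D3:**
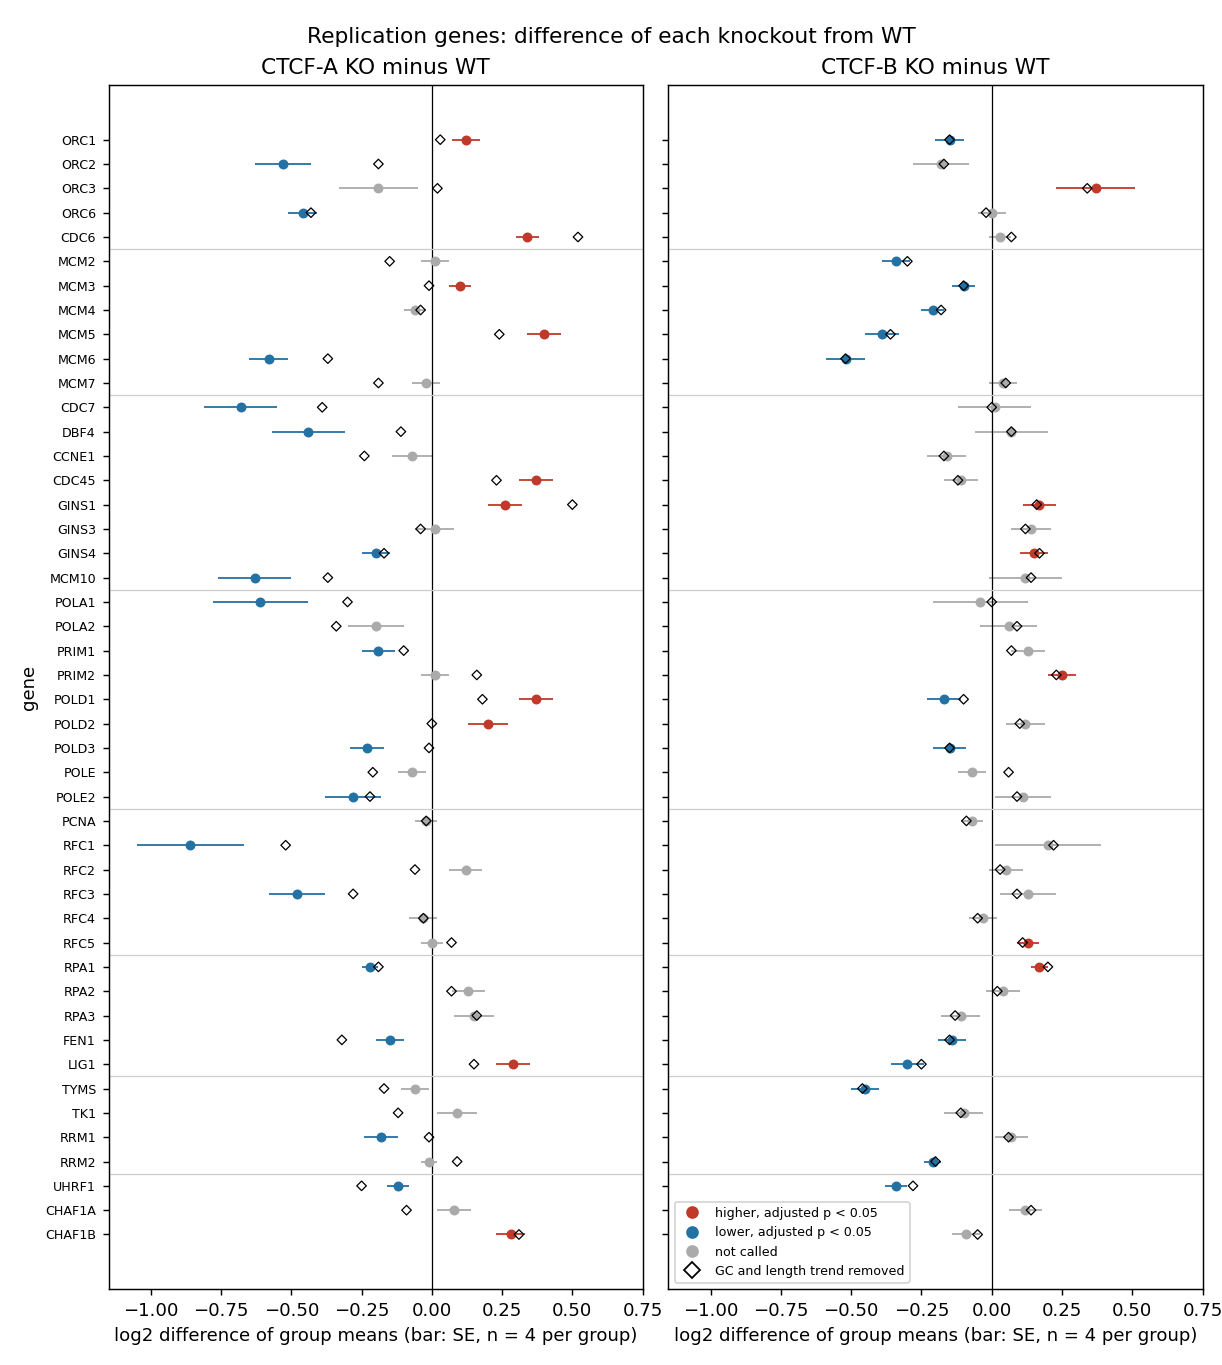
Log2 difference from WT of each replication gene, CTCF-A KO left and CTCF-B KO right (filled points with SE, n = 4 per group, coloured by the limma call) and the same after removal of the GC and length trend (open diamonds). Diamonds lie nearer 0 than points for RFC1, CDC7 and MCM10 in CTCF-A KO and almost on the points for most genes in CTCF-B KO.

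Single-strand binding and lagging-strand joining involve the next 5 genes, of which 1 rose and 2 fell in each knockout. RPA1, the large subunit of RPA, separated all 3 groups with little spread, at means of 11.57 ± 0.03 in CTCF-A KO, 11.96 ± 0.03 in CTCF-B KO and 11.80 ± 0.03 in WT (SD, n = 4 each). It was 0.22 ± 0.03 lower in CTCF-A KO and 0.17 ± 0.03 higher in CTCF-B KO than in WT (adjusted p 9.97e-05 and 0.0016, limma), with differences of -0.19 and 0.20 once the trend was removed. The other RPA subunits were not called against WT (RPA2 0.13 and RPA3 0.15 in CTCF-A KO, against 0.04 and -0.11 for CTCF-B KO). LIG1, the ligase that seals Okazaki fragments, moved the opposite way to RPA1. It was 0.29 ± 0.06 higher in CTCF-A KO and 0.30 ± 0.06 lower in CTCF-B KO than in WT, with the groups apart. In CTCF-A KO the LIG1 difference was 0.15 with the trend removed, and 0.08 and not called (adjusted p 0.204, limma) in replicate 4 alone. The flap endonuclease FEN1 fell in both (CTCF-A KO -0.15, CTCF-B KO -0.14), with differences of -0.32 and -0.15 after removal of the trend.

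Of the 4 nucleotide supply genes, 1 was lower in CTCF-A KO and 2 were lower in CTCF-B KO, and no gene was called higher. TYMS, which makes thymidylate, stood at 11.47, 11.46, 11.37 and 11.29 in CTCF-A KO, 11.06, 10.95, 11.00 and 11.00 for CTCF-B KO, and 11.48, 11.41, 11.47 and 11.45 in WT. CTCF-B KO was below both other groups in every library. It differed from WT by -0.06 in CTCF-A KO (adjusted p 0.295, limma) and fell to 0.733 of WT in CTCF-B KO (-0.45 ± 0.05, adjusted p 5.72e-06). RRM2 was at -0.01 in CTCF-A KO and fell by 0.21 ± 0.03 in CTCF-B KO. The large reductase subunit RRM1 fell by 0.18 in CTCF-A KO, with overlapping libraries and a difference of -0.01 once the trend was removed. TK1 was called in neither knockout as deposited (0.09 and -0.10), but was lower in both with the trend removed (-0.12 and -0.11).

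Chromatin copying is covered by 3 genes. UHRF1, which brings the maintenance DNA methyltransferase to hemimethylated DNA, stood at 11.55, 11.57, 11.45 and 11.39 in CTCF-A KO libraries, 11.31, 11.30, 11.26 and 11.22 in CTCF-B KO libraries, and 11.65, 11.59, 11.59 and 11.60 in WT. Both knockouts were below WT in every library. It fell by 0.12 ± 0.04 in CTCF-A KO (0.25 with the trend removed) and by 0.34 ± 0.04 in CTCF-B KO (adjusted p 0.031 and 7.02e-05, limma). CHAF1B, a subunit of the histone chaperone CAF-1, was 0.28 ± 0.05 higher in CTCF-A KO (0.31 with the trend removed, and 0.15 and not called in replicate 4 alone) and -0.09, not called, in CTCF-B KO. Its partner CHAF1A was called in neither (0.08 and 0.12).

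Set directly against each other, 15 of the 46 genes were higher and 17 lower in CTCF-A KO than in CTCF-B KO, near the background of 33.4% and 32.6% of all genes. The higher genes included 4 of the 6 MCM2-7 subunits (MCM2, MCM3, MCM4 and MCM5), LIG1, POLD1, CDC45, TYMS and RRM2. The lower genes included 4 of the 8 firing genes, 5 of the 9 polymerase and primase genes and 3 of the 6 clamp genes. MCM10 was 0.75 ± 0.13 lower in CTCF-A KO than in CTCF-B KO (adjusted p 0.000211, limma), and CDC7 was 0.69 ± 0.13 lower (adjusted p 0.000533). These were 0.51 and 0.39 lower with the trend removed, and when replicate 4 stood alone for CTCF-A KO, 0.24 and 0.27 lower. Over all genes 32.9% were higher and 35.6% lower with the trend removed, and 27.6% higher and 26.9% lower in replicate 4 alone. Of the 15 and 17 members called, 12 and 10 were also called in both of these.

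The comparisons with WT share the WT libraries, so their calls are given side by side. Lower in both knockouts as deposited were 4 genes, MCM6, POLD3, FEN1 and UHRF1, against 7.4% of all genes. Of these POLD3 was at -0.01 and not called in CTCF-A KO with the trend removed. Higher in CTCF-A KO and lower in CTCF-B KO as deposited were 5 genes, ORC1, MCM3, MCM5, POLD1 and LIG1, against 6.53% of all genes. With the trend removed ORC1 (0.03) and MCM3 (-0.01) were no longer called in CTCF-A KO. MCM5 (0.24), POLD1 (0.18) and LIG1 (0.15) still were, though LIG1 was at 0.08 in replicate 4 alone. The 2 genes lower in CTCF-A KO and higher in CTCF-B KO were GINS4 and RPA1, against 3.66% of all genes. Whether these counts differ from the shares of all genes was not tested. As deposited 12 genes were called in neither comparison, against 23.3% of all genes. Among the 12 were MCM7, PCNA, POLE and TK1. With the trend removed MCM7 (-0.19), POLE (-0.21) and TK1 (-0.12) were called lower in CTCF-A KO. PCNA (-0.09) and TK1 (-0.11) were then called lower in CTCF-B KO.

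Transcript GC content moved with the CTCF-A KO differences. Across the 46 genes, the deviation from WT and the GC percentage of the longest transcript had Pearson's r of 0.70, 0.53, 0.62 and 0.06 in CTCF-A KO replicates 1 to 4 (Spearman's rho 0.73, 0.56, 0.64 and 0.07), as a description over genes of one library. In CTCF-B KO r was between -0.45 and -0.24, and in WT it was between -0.58 and 0.49. The 23 genes of lower GC (cut at 48%) had 2 higher and 14 lower calls in CTCF-A KO and 5 higher and 3 lower in CTCF-B KO. The 23 of upper GC had 8 higher and 3 lower in CTCF-A KO and 1 higher and 10 lower in CTCF-B KO. The shares of all genes called in these GC ranges were not computed, so these counts have no background. The GC dependence of the CTCF-A KO libraries given above was one over all genes, not only these. With the trend removed the medians in CTCF-A KO were -0.10 in the lower and -0.06 in the upper GC genes, against -0.20 and 0.08 before. The 7 largest falls in CTCF-A KO as deposited, those of RFC1 (41.7% GC), CDC7 (39.1%), MCM10 (43.3%), POLA1 (42.9%), MCM6 (43.1%), ORC2 (40.1%) and RFC3 (39.1%), were all in the lower GC set. What gave the GC dependence of replicates 1 to 3 was not tested.

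**Figure D4:**
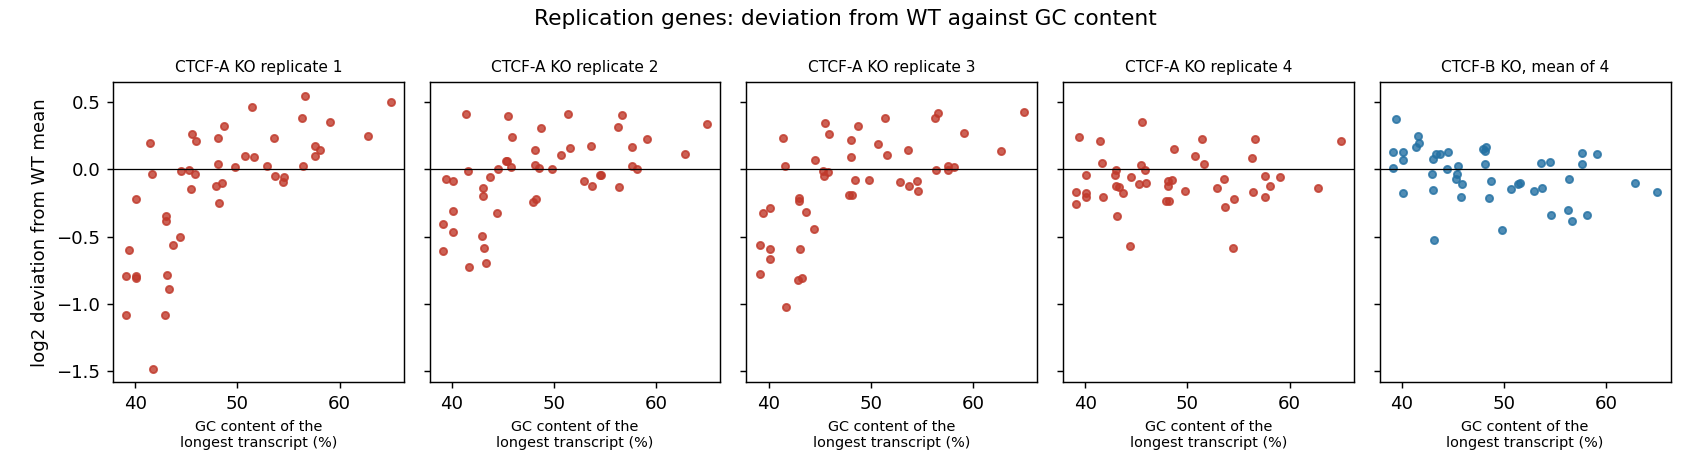
Log2 deviation from the WT mean of each replication gene (points, n = 46) against the GC percentage of its longest transcript, for CTCF-A KO replicates 1 to 4 and for the mean of the 4 CTCF-B KO libraries. The lowest point is at -1.49 in CTCF-A KO replicate 1 (RFC1, 41.7% GC) and at -0.58 in replicate 4 (POLA2, 54.5% GC).

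Position on the chromosome was compared as well, a measure added after values had been seen. For each gene the median difference of the other genes within 5 Mb on either side was computed after removal of the trend. It was set beside each member called the same way as deposited and with the trend removed. The neighbours' median had the gene's sign and at least 50% of its size for 6 of 20 in CTCF-A KO (ORC2, ORC6, CDC6, MCM5, RPA1 and FEN1). In CTCF-B KO this held for 6 of 18 (GINS4, POLD3, RFC5, RPA1, FEN1 and RRM2). It had the opposite sign for 6 of the 20 and 7 of the 18. The same shares over all genes were not computed, so these counts have no background. In CTCF-A KO the 21 neighbours of ORC6 on chromosome 16 had a median of -0.47, beside -0.43 for ORC6, the 147 neighbours of CDC6 on chromosome 17 had 0.26, beside 0.52, and the 81 neighbours of MCM5 on chromosome 22 had 0.18, beside 0.24. ORC2 (-0.19) lay among neighbours at -0.14 and RPA1 (-0.19) among neighbours at -0.15. GINS1 (0.50) and MCM6 (-0.37) stood away from their neighbours, whose medians were -0.03 and -0.11. In CTCF-B KO the neighbours of MCM6, MCM5, TYMS, MCM2, UHRF1 and LIG1 had medians of 0.01, -0.02, 0.01, 0.10, 0.10 and 0.02, beside -0.52, -0.36, -0.46, -0.30, -0.28 and -0.25 for the genes themselves. RRM2, at -0.20 in CTCF-B KO, lay among 23 neighbours with a median of -0.24, RPA1 (0.20) among neighbours at 0.16, GINS4 (0.17) among neighbours at 0.14 and RFC5 (0.11) among neighbours at 0.12. The part of position in these results was not tested further.

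Other genes of the replication pathway gave the setting, from lists chosen by function. Of 24 further replication factors, 4 rose and 15 fell in CTCF-A KO (median -0.33), and 2 rose and 6 fell in CTCF-B KO (median -0.03). After removal of the trend 2 rose and 15 fell in CTCF-A KO (median -0.19), and 5 rose and 7 fell in CTCF-B KO. The shares of all genes for these and the next lists are those given for the 46: 31.8% higher and 31.1% lower in CTCF-A KO and 18.9% and 20.6% in CTCF-B KO as deposited, and 31.6%, 30%, 29.5% and 25.7% with the trend removed. MCMBP, an MCM-binding protein, averaged 9.61 ± 0.11 in CTCF-A KO, 10.98 ± 0.07 in CTCF-B KO and 10.88 ± 0.02 in WT (SD, n = 4). It fell by 1.27 ± 0.06 in CTCF-A KO (adjusted p 3.41e-09, limma), and GINS2, the GINS subunit outside the 46, fell by 0.86 ± 0.06. Their neighbours within 5 Mb were lower too: with the trend removed, the CTCF-A KO median of 32 genes around MCMBP was -0.97, beside -0.99 for MCMBP, and 59 around GINS2 had -0.65, beside -0.93. SSRP1, a subunit of the histone chaperone FACT, fell in both knockouts (CTCF-A KO -0.28, CTCF-B KO -0.26), and the differences were -0.43 and -0.26 with the trend removed. The treslin gene TICRR fell by 0.25 in CTCF-B KO (-0.16 with the trend removed), and GMNN, which codes for the licensing inhibitor geminin, rose by 0.21.

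Of 18 nucleotide genes beyond the 46, 5 were higher and 7 lower in CTCF-A KO (median 0.02), and 4 were higher and 11 lower in CTCF-B KO (median -0.21). Removing the trend left 6 higher and 7 lower in CTCF-A KO (median -0.06), and 4 higher and 10 lower in CTCF-B KO (median -0.13). The difference between these counts was not tested. DUT, the dUTPase that keeps uracil out of DNA, averaged 11.18 ± 0.13 in CTCF-A KO, 10.12 ± 0.05 in CTCF-B KO and 11.01 ± 0.04 in WT (SD, n = 4). It fell by 0.89 ± 0.06 in CTCF-B KO (adjusted p 8.64e-08, limma). Its 47 neighbours had a median of -0.23 there with the trend removed, beside -0.91 for DUT. PAICS, of purine synthesis, fell by 0.47. In CTCF-A KO, SAMHD1, which breaks down deoxynucleotides, rose by 0.81 (0.99 with the trend removed), while DCK fell by 0.45 (-0.22 with the trend removed). PAICS fell there by 0.41 as deposited, but was at -0.04 and not called with the trend removed (adjusted p 0.471, limma).

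Regulators of E2F activity also differed. In CTCF-A KO 5 of the 25 rose and 12 fell (median -0.24), and 3 rose and 5 fell in CTCF-B KO (median -0.03). With the trend removed 4 rose and 11 fell in CTCF-A KO (median -0.07), and 6 rose and 7 fell in CTCF-B KO (median -0.04). CCND1, the cyclin D1 gene, fell by 1.36 ± 0.08 in CTCF-A KO (adjusted p 3.51e-08, limma), CCNA2, the S-phase cyclin A2, fell by 0.61, and CDKN1A, the CDK inhibitor p21, rose by 0.79. These differences were -1.40, -0.43 and 0.59 with the trend removed. In CTCF-B KO the activator E2F2 fell by 0.42, the repressor E2F7 rose by 0.69, and MYBL2, a transcription factor of late cell-cycle genes, fell by 0.49. Of 14 replication stress and repair genes, 1 was higher and 10 were lower in CTCF-A KO, with the checkpoint kinase CHEK1 at -0.91, WEE1 at -0.34 and MSH6 at -0.57, and 2 rose and 2 fell in CTCF-B KO, with WEE1 at -0.25, HUS1 at 0.23 and MSH6 at -0.47. With the trend removed, 5 of the 14 fell and none rose in CTCF-A KO, where CHEK1 was at -0.61, MSH6 at -0.13 and WEE1 at -0.07 and no longer called (adjusted p 0.204, limma), and 2 rose and 5 fell in CTCF-B KO.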

How the data were processed

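RNA of 12 libraries was sequenced as read pairs. Per the submitters' processing notes, Trimmomatic 0.33, featureCounts, DESeq2 and build GRCh38.p7 were used; the aligner, annotation, strand setting and gene filter are not given in the sources used here. The deposited values are log2 normalized expression (1.34 to 17.97) by the values themselves. The transformation is not recorded. They were used without rescaling. Genes with a linear value of at least 10 in at least 4 libraries were kept (50 removed). One model of 3 group means was fitted with limma 3.58.1 (R 4.3.3, trended prior), two-sided, with Benjamini-Hochberg adjustment over all kept genes at 0.05; it was tested on simulated data. The trend was fitted in each library with splines of GC content (5 degrees of freedom) and log2 length (4) of the longest GENCODE transcript, and their product. Values in every library were given for the 6 called members with non-overlapping libraries and the largest difference per knockout, and for 4 between the knockouts; others given were chosen after values were seen. In other lists the 3 smallest p-values were named. One gene that this rule names is not reported here. The members and lists were chosen with earlier results of these data known. Alternatives were leaving out each library, quantile normalization, other filters and priors, a replicate block and 2-group fits. Overlapping genes and paralogs may share reads.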

Additional observations from a re-analysis of the deposited data

Results flagged for a closer look

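In 9 of the 138 sets of 4 libraries (46 genes in 3 groups), 1 library stood far from the other 3. Chance gives about 5% of such sets, or 6.9 here. In CTCF-A KO these were POLA2 in replicate 4 (6.09, the others 6.58 to 6.63), RPA3 in replicate 4 (9.46, the others 9.78 to 9.83), CHAF1B in replicate 4 (9.39, the others 9.55 to 9.57), GINS1 in replicate 2 (9.08, the others 8.86 to 8.90) and ORC1 in replicate 3 (9.37, the others 9.28). In CTCF-B KO it was MCM2 in replicate 2 (10.98, the others 11.00 to 11.01). In WT these were POLE2 in replicate 4 (7.34, the others 7.03 to 7.07), UHRF1 in replicate 1 (11.65, the others 11.59 to 11.60) and CHAF1B in replicate 4 (9.30, the others 9.21 to 9.22).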

How the results depend on the processing

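Leaving out 1 library at a time gave 7 to 15 higher and 14 to 18 lower members in CTCF-A KO (15 higher without CTCF-A KO replicate 4), 2 to 8 higher and 8 to 16 lower in CTCF-B KO, and 14 to 19 higher and 16 to 17 lower in CTCF-A KO against CTCF-B KO. In CTCF-B KO 2 were higher without CTCF-B KO replicate 1 or 2 or without WT replicate 2 or 4, and 8 were lower without CTCF-B KO replicate 4 or without WT replicate 1 or 4. At least 1 such fit lost 7 of 27, 9 of 19 and 2 of 32 calls in the 3 comparisons. Fitting only the 2 groups compared gave 12 higher in CTCF-B KO, and replicate 4 standing alone for CTCF-A KO gave 5 higher in CTCF-A KO. The cause was not tested. Among genes called as deposited or under the alternative, directions reversed in CTCF-A KO against WT for MCM3 (-0.01) under quantile normalization. With the GC and length trend removed, with or without the replicate block, they reversed for MCM2 (-0.15), MCM3 (-0.01), POLD2 (-0.00), TK1 (-0.12) and RRM2 (0.09), for CHAF1A (-0.09), which was called with the block only, and, against CTCF-B KO, for MCM6 (0.15), POLD2 (-0.11), POLD3 (0.14), RFC2 (-0.10) and TK1 (-0.02). Replicate 4 alone reversed MCM2 (-0.12), POLD2 (-0.05) and TK1 (-0.14) against WT, and MCM6 (0.17), POLD2 (-0.17) and TK1 (-0.04) against CTCF-B KO. Genes called in neither fit also changed sign against WT: with the trend removed ORC3 (0.02), GINS3 (-0.04), RFC2 (-0.06) and RFC5 (0.07), and in replicate 4 alone ORC3 (0.24), RPA3 (-0.10), RPA2 (-0.08), RFC2 (-0.07), CHAF1A (-0.05), GINS3 (-0.12) and RFC4 (0.03). Same-numbered libraries did not pair: their deviations correlated at -0.32 to 0.43, and 2, 2 and 4 of 8 libraries correlated best with their own number. With the replicate block 9 members were higher and 17 lower in CTCF-A KO, against 4 and 13 for CTCF-B KO, and 15 and 17 between the knockouts. E2F matches counted before the start site only were in 12 promoters, against 17 in the whole window. Read depth is unknown, and small differences of low-expressed genes such as POLA2 cannot be weighed by counts.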

Other observations

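Genes of mitosis and of chromatin assembly, which act after or beside the fork, were read in the same way. Of 17 mitotic genes, 2 were higher and 8 lower in CTCF-A KO than in WT (median -0.19), and 2 were higher and none lower in CTCF-B KO (median -0.08), against 31.8% and 31.1% of all genes in CTCF-A KO and 18.9% and 20.6% in CTCF-B KO. With the trend removed none was higher and 7 were lower in CTCF-A KO (median -0.10; 31.6% and 30% of all genes), and 2 were higher and 5 lower in CTCF-B KO (median -0.05; 29.5% and 25.7%), CDC20 (-0.16), CDK1 (-0.22) and BUB1B (-0.19) among the lower. MKI67, the proliferation marker, fell by 1.41 ± 0.11 in CTCF-A KO (adjusted p 3.69e-07, limma), and 19 genes within 5 Mb of it had a median of -1.03 with the trend removed, beside -1.23 for MKI67. CDK1 fell by 0.58 and BUB1B by 0.59 (-0.40 and -0.38 with the trend removed). In CTCF-B KO, PLK1 rose by 0.15 and AURKB by 0.17, and CDC20 was at -0.15 as deposited (adjusted p 0.0679, limma). Of 9 histone chaperone and chromatin genes, 1 was higher and 6 were lower in CTCF-A KO, with CBX5 at -1.06, ASF1B at 0.34 and SLBP at -0.26, and 1 rose and 4 fell in CTCF-B KO, with RBBP4 at -0.35, LMNB1 at -0.31 and SLBP at -0.27. With the trend removed 2 rose and 5 fell in each knockout, and in CTCF-A KO CBX5 was at -0.62, ASF1B at 0.14 and SLBP at -0.39.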
